A study of Mus musculus with 6 samples.

Results

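The genes described here form the protein folding and export machinery of the endoplasmic reticulum (ER). They were chosen as a list of 40 gene symbols covering ER folding, the unfolded protein response and secretion, by symbol alone, by a rule that uses no measured value, though with earlier results of these data known. In the expression table of 19730 rows, 39 of the 40 symbols were found, each in 1 row. Mia3, which encodes a loading receptor for bulky cargo at ER exit sites, had no row and was not analysed here. The data are RNA-Seq of primary mouse mesangial cells, which hold up the capillary loops of the kidney glomerulus and can contract. All cells were used at passage 3 to 6 in DMEM with 25.5 mM glucose and 20% foetal bovine serum, so the control cells too were held in high glucose. TGF-β1, a secreted growth factor that drives scarring, was given at 10 ng/ml for 72 h to the treated cells, and there were 3 Control and 3 TGF-β1 libraries. No genotype, strain or vehicle is given in the labels. The study collected each group in triplicate and speaks of biological replicates for its DNA methylation data. For the RNA libraries no source used here names separate cultures or animals, so the p-values measure only the spread between these libraries, which may be technical.

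Proteins bound for the cell surface or the matrix are threaded into the ER through a channel, folded there by chaperones and disulfide-forming enzymes, and carried out in COPII-coated vesicles. Proteins that fail to fold are retrieved and degraded, a process called ER-associated degradation. When unfolded proteins build up, 3 membrane sensors, encoded by Atf6, Ern1 (IRE1) and Eif2ak3 (PERK), start the unfolded protein response, which slows translation and raises transcription of the folding, degradation and export machinery. Mesangial cells secrete collagens and other matrix proteins of the glomerulus, which pass through this route.

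The libraries held about 10.1 to 11.1 M mapped fragments each, as recovered from the steps between the lowest values with an assumed fragment length of 200 nt. Levels are FPKM, which is the number of fragments per kilobase of transcript for each M (mega) of fragments mapped. The sources do not say if a row is for the whole gene or for 1 named transcript, and levels set side by side between genes carry that limit. The least covered of the 39 genes, Sdf2l1, rested on about 106 to 274 fragments per library and the most covered, Calr, on about 11683 to 21214. Of the mesangial markers, Acta2 stood at 912 to 1091 FPKM in Control and 3587 to 4268 in TGF-β1 libraries and Pdgfrb at 32.0 to 41.1 and 28.4 to 29.9. Vim was at 1922 to 2376 and 3249 to 3598, and Tagln at 451 to 570 and 1667 to 1914. Gata3 was at 0.756 to 2.42 and 0.846 to 1.26, and Pdgfra at or under 0.217. Des stayed at or under 0.550 FPKM, Itga8 at or under 0.174 and Thy1 at or under 0.180, so these listed markers of the labelled cell type were near or at 0. Cdh16, an adhesion protein of kidney tubules, was at 114 to 146 FPKM in Control and 5.75 to 6.87 in TGF-β1 libraries, and it made up nearly all of the 115 to 148 and 6.37 to 7.67 FPKM of the 4 tubular markers with a row, whose epithelial member Cdh1 was at or under 0.123. The 4 leukocyte markers summed to 8.19 to 9.58 FPKM in Control and 2.26 to 3.24 in TGF-β1 libraries, with Ptprc at or under 0.0448. Most of the Control sum was Csf1r, at 5.52 to 7.37 FPKM in Control and 0.234 to 0.525 in TGF-β1 libraries. Cd68 was at 2.02 to 3.67 and 1.78 to 2.68. The 5 podocyte markers summed to 19.7 to 24.9 in Control and 12.6 to 13.7 in TGF-β1 libraries, with Nphs1 at or under 0.398. Most of that sum was Synpo, at 11.6 to 12.8 and 7.34 to 8.47, and Wt1, at 5.88 to 9.88 and 3.61 to 4.35. The 5 endothelial markers summed to 0.722 to 0.948 and 0.417 to 1.14. Whether these shifts in marker levels had a part in the results was not tested. In such bulk libraries fewer cells of a type and less RNA per cell cannot be told apart. TGF-β1 replicate 2 stood apart from its group by GC content, and the 5 genes lowest in it, Syvn1, Sdf2l1, Sec61b, P4hb and Ppib, are given with and without it.

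Most of the 39 genes were upregulated in TGF-β1-treated cells. Of the 39, 35 (89.7%) passed the test as higher with TGF-β1, and none was lower, also at an unadjusted p under 0.05, since all 39 changes were above 0. A gene was called changed at an adjusted p under 0.05 in limma, fitted over all 11898 rows with a mean of at least 1 FPKM, and all 39 passed that filter on level. Over all rows tested 24.5% were called higher and 23.6% lower. The median change of the 39 genes was 0.84 on the log2(FPKM + 1) scale, against -0.017 over all rows tested, and every one of the 39 lay above that median. The changes ran from 0.022 for Sel1l to 1.89 for Serp1, and the ratio of group mean FPKM from 1.01 to 3.82. In 15 genes (38.5%) the called change came to 1 or more on the log2 scale, which 6.56% of all rows reached. In the same 35 genes every TGF-β1 library lay above every Control library, which held for 29.9% of all rows. The FPKM of the 39 genes summed to 3028, 2853 and 3174 in the Control libraries and to 5614, 5611 and 5457 in the TGF-β1 libraries. The lowest treated sum was thus 1.72 times the highest control sum. All 35 kept their direction under every rescaling of the libraries that was tried. A common sum of FPKM without the top 1% of rows moved the median of all rows to -0.15 and the split of all calls from 2911 higher and 2810 lower to 2183 higher and 3684 lower, and left 33 of the 39 genes called higher.

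**Figure D1:**
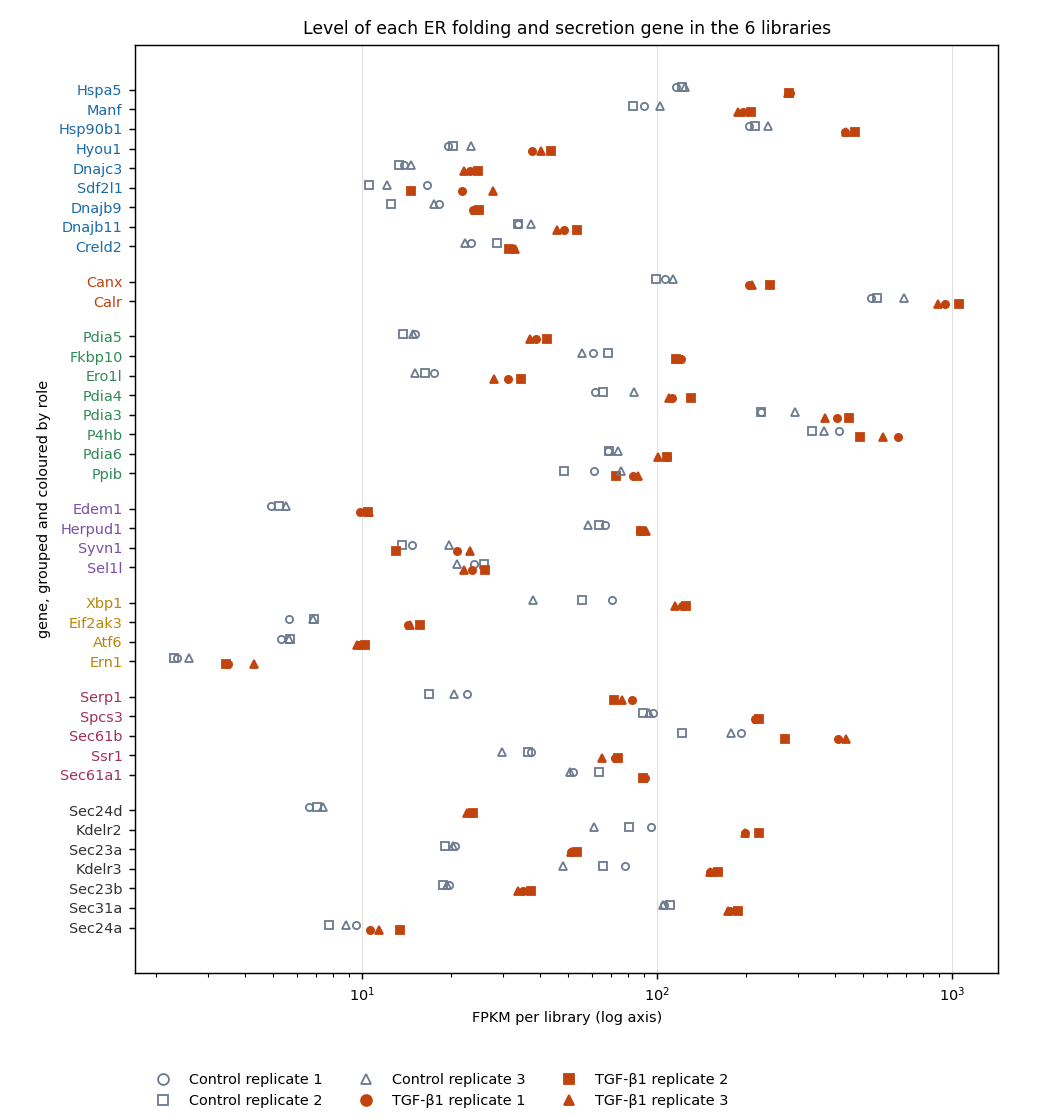
FPKM on a log axis (x) of each of the 39 genes (y, grouped and coloured by role) in the 3 Control libraries (open grey symbols) and the 3 TGF-β1 libraries (filled symbols), with 1 symbol shape per replicate number. The filled symbols lie to the right of all open ones in 35 genes and overlap them in Sdf2l1, Ppib, Syvn1 and Sel1l.

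**Figure D2:**
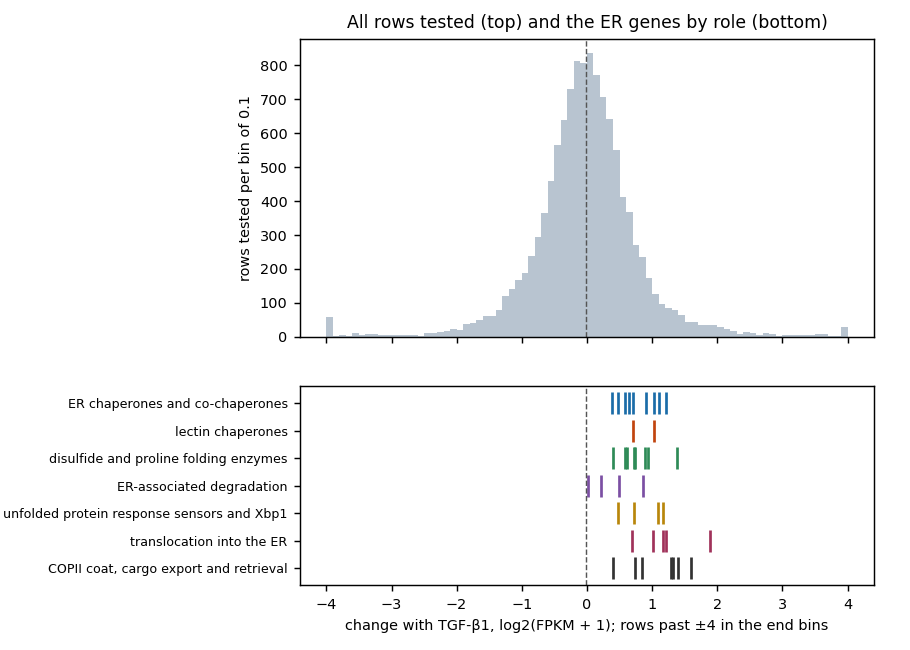
Number of rows tested per bin of 0.1 (top, y) by their change with TGF-β1 on the log2(FPKM + 1) scale (x), above the changes of the 39 genes by role (bottom, 1 tick per gene). Dashed lines mark the median of all rows, -0.017, and all 39 ticks lie to its right.

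Genes of this group are textbook targets of the transcription factors ATF6 and XBP1, which bind short DNA elements in their promoters, so the promoter sequences were searched for 3 of these elements. The windows were RefSeq sequences on build GRCm38.p6 from 250 bases before to 50 bases after each transcription start, 300 bases in length. Of the 40 listed genes 33 had a window, Mia3 included, and Manf, Hyou1, Atf6, Fkbp10, Sec61a1, Kdelr2 and Spcs3 had none. The ER stress element, ERSE, was searched as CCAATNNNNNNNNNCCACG, a second form, ERSE-II, as ATTGGNCCACG, and the unfolded protein response element, UPRE, as TGACGTGG. Both strands were read, each match had to be exact, and the elements share letters, since CCACG ends both ERSE forms and opens the UPRE read on the other strand. An exact ERSE was found in 8 of the 33 genes (24.2%) and in 39 of all 32851 windows (0.119%). ERSE-II was in 2 of the 33 genes, Dnajb11 and Herpud1, and in 0.0365% of all windows, and the UPRE was in 3 genes, Kdelr3, Sec23a and Sec24d, and in 0.676% of all windows. The 10 sites below are a part of those found, each upstream of a gene whose values follow. The letters of the element are in capitals, with 5 bases on each side. Each is written 5′ to 3′ on the strand of its gene, so that a capital run that opens with CGTGG or with CCACGTCA is the element on the other strand.
Hspa5, ERSE, chr2:34772020-34772048, plus strand: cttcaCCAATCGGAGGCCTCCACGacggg
Hsp90b1, ERSE nearer the start, chr10:86705528-86705556, minus strand: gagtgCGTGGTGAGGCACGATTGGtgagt
Hsp90b1, ERSE farther from the start, chr10:86705633-86705661, minus strand: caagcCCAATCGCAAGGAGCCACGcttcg
Calr, ERSE, chr8:84847070-84847098, minus strand: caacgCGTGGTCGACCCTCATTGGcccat
Canx, ERSE, chr11:50325795-50325823, minus strand: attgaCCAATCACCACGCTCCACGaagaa
Creld2, ERSE, chr15:88819515-88819543, plus strand: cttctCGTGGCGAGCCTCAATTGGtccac
Syvn1, ERSE, chr19:6046527-6046555, plus strand: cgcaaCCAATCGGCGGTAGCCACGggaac
Herpud1, ERSE-II, chr8:94386372-94386392, plus strand: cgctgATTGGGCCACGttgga
Kdelr3, UPRE, chr15:79516373-79516390, plus strand: ccccgCCACGTCAccgcg
Sec24d, UPRE, chr3:123267465-123267482, plus strand: gcgccTGACGTGGcacta

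The other 2 genes with an ERSE were Dnajc3 and Pdia6. The 8 genes with an exact ERSE had a median change of 0.71 on the log2 scale, from 0.21 for Syvn1 to 1.21 for Hspa5, and 7 of the 8 were called higher. The 24 measured genes with a window and no exact ERSE had a median of 0.79, from 0.022 to 1.89, and the difference was not tested. The 3 genes with a UPRE had changes of 1.29 to 1.60, against a median of 0.73 and a range of 0.022 to 1.89 in the 29 without it. All 3 belong to the COPII and retrieval group, whose 7 genes had a median change of 1.29. Element and role thus cannot be told apart, and the difference was not tested. A match of letters is no evidence that a factor was bound, and no match says only that these letters are not in this window.

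All 4 genes of the sensors and their effector were upregulated, with a summed level 2.16 times higher in TGF-β1-treated cells. Xbp1 made up the largest share of that sum. The ratio of group means was 2.21 in Xbp1, 2.30 in Eif2ak3, 1.77 in Atf6 and 1.55 in Ern1. Xbp1 encodes the transcription factor that IRE1 activates by cutting its mRNA. It was at 70.1, 55.7 and 37.9 FPKM in Control and 122, 125 and 115 in TGF-β1 libraries. The Control libraries spread widely, yet each treated library lay above all of them, and the change was 1.17 ± 0.21 (SE) on the log2 scale (adjusted p = 0.00536). Xbp1 was no longer called when replicates 1 and 3 stood alone (adjusted p = 0.0540). The FPKM of the row does not tell the spliced from the unspliced form.

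Eif2ak3, the kinase that slows translation by phosphorylating eIF2α, changed most among the 3 sensors. Its level was 5.65, 6.90 and 6.82 FPKM in Control and 14.3, 15.7 and 14.5 in TGF-β1 libraries, a change of 1.09 ± 0.10 (SE, adjusted p = 3.22e-04). Atf6, whose product is cut in the Golgi to release a transcription factor, rose from 5.33, 5.72 and 5.63 to 9.78, 10.2 and 9.61 FPKM. Both genes had tight replicates and groups well apart, and the change of Atf6 was 0.73 (adjusted p = 5.83e-04). Ern1, the kinase and nuclease that cuts Xbp1 mRNA, was the lowest in level per length of the 39 genes. It stood at 2.36, 2.31 and 2.60 FPKM in Control and 3.52, 3.46 and 4.30 in TGF-β1 libraries, a change of 0.47 (adjusted p = 0.0144). Ern1 was not called with replicates 1 and 3 alone (adjusted p = 0.0589). These are mRNA levels, and the activity of the sensors was not measured.

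Of the 9 ER chaperones and co-chaperones, 8 were upregulated and Sdf2l1 did not pass the test, and their summed level was 2.01 times higher with TGF-β1. Hspa5 encodes BiP, the Hsp70 of the ER that binds unfolded chains and holds the sensors inactive. Its row lies on mm9 at chr2:34627490-34632051 and carries the identifier of a short non-coding transcript of the gene. Hspa5 was at 116, 121 and 124 FPKM in Control and 282, 280.4 and 279 in TGF-β1 libraries. The replicates of each group lay within a narrow range and the groups far apart, with a change of 1.21 (95% interval 1.04 to 1.38, adjusted p = 6.15e-05). Hsp90b1, the Hsp90 of the ER (GRP94), which carries 2 ERSE sites, went from 205, 215 and 237 to 434, 469.7 and 438 FPKM. That change was 1.03 (adjusted p = 2.74e-04), and its row too has a non-coding identifier and overlaps genes on both strands at chr10:86152954-86168254 (mm9).

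The remaining chaperone genes changed by 0.38 to 1.10. Manf, a secreted ER stress protein that is retained by KDEL receptors, went from 91.8 ± 9.57 to 197 ± 10.5 FPKM (mean ± SD, n = 3 in each group here and below), a change of 1.10, in a locus that overlaps Rbm15b and Vprbp. Hyou1, the nucleotide exchange factor that resets BiP, went from 21.1 ± 2.05 to 40.6 ± 3.09 FPKM. Dnajc3, a J-domain protein that also inhibits eIF2α kinases, went from 13.9 ± 0.622 to 23.4 ± 1.30. For these 3 genes the adjusted p was at or under 7.38e-04. Dnajb11, a BiP co-chaperone whose window holds an ERSE-II after the start site, rose less, from 34.9 ± 2.11 to 49.2 ± 3.90 FPKM, by 0.48 on the log2 scale (adjusted p = 0.00564).

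The calls of Dnajb9 and Creld2 were the weakest of this group. Dnajb9, the J-domain protein that brings BiP to IRE1, went from 16.1 ± 3.11 to 24.2 ± 0.632 FPKM (adjusted p = 0.0181), and leaving out TGF-β1 replicate 1, 2 or 3 gave adjusted p = 0.0525, 0.0527 and 0.0539. Creld2, a secreted protein known as an ER stress marker, went from 24.8 ± 3.41 to 32.4 ± 0.700 FPKM (adjusted p = 0.0277), and 8 of 17 alternatives kept the call. Without Control replicate 1 or 3 the adjusted p of Creld2 was 0.0826 and 0.0647, and without TGF-β1 replicate 1, 2 or 3 it was 0.0831, 0.0557 and 0.0824. Sdf2l1, part of a complex with BiP co-chaperones, stood at 16.6, 10.5 and 12.1 FPKM in Control and 21.9, 14.7 and 27.8 in TGF-β1 libraries. Here replicate 2 was the lowest of both groups and the groups overlapped. The change of Sdf2l1 was 0.65 with an interval of 0.03 to 1.27 (adjusted p = 0.0805), and without TGF-β1 replicate 2 it was 0.89 (adjusted p = 0.0248). Without TGF-β1 replicate 3 it was 0.45 (adjusted p = 0.208) and without Control replicate 2 it was 0.52 (adjusted p = 0.212).

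Both lectin chaperones, which bind the sugar of newly made glycoproteins until they fold, were upregulated, and their summed level was 1.70 times higher. Canx encodes calnexin, the membrane-bound form. It was at 106, 99.0 and 113 FPKM in Control and 205, 241 and 209 in TGF-β1 libraries, a change of 1.03 (adjusted p = 3.78e-04). Calr encodes calreticulin, the soluble and calcium-binding form. It was at 531, 558 and 688 FPKM in Control and 949, 1057 and 897 in TGF-β1 libraries. The highest Control library stayed under the lowest treated one, with a change of 0.71 (adjusted p = 0.00566). The difference between the changes of Canx and Calr was not tested.

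Among the enzymes that form disulfide bonds or turn prolines, 7 of 8 were upregulated and Ppib did not pass the test, and the summed level was 1.61 times higher. Pdia5, a protein disulfide isomerase, changed most in this group. It went from 15.1, 13.7 and 14.9 FPKM in Control to 39.0, 42.5 and 37.2 with TGF-β1, a ratio of means of 2.71 and a change of 1.38 (adjusted p = 7.73e-05). The other enzymes changed by 0.94 or less. Fkbp10, a prolyl isomerase that acts on collagen, went from 61.7 ± 6.42 to 118 ± 2.18 FPKM, and Ero1l, the oxidase that recharges the disulfide isomerases, from 16.4 ± 1.19 to 31.3 ± 3.25. Their changes were 0.94 and 0.89 (adjusted p = 4.61e-04 and 8.67e-04).

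The 4 other disulfide isomerases rose by 0.58 to 0.74. Pdia3, which works with the lectin chaperones, went from 248 ± 39.8 to 409 ± 38.8 FPKM and Pdia4 from 70.3 ± 11.8 to 117 ± 11.0. In both, Control replicate 3 was the highest of its group, and neither was called with replicates 1 and 3 alone (adjusted p = 0.0554 and 0.0572). Pdia6, which also acts on the sensors, went from 70.3 ± 3.14 to 106 ± 4.16 FPKM (adjusted p = 0.00130). P4hb, both a disulfide isomerase and the beta subunit of the collagen prolyl 4-hydroxylase, went from 372 ± 39.5 to 575 ± 82.8 FPKM (change 0.62, adjusted p = 0.0120), and its change was 0.73 without TGF-β1 replicate 2 (adjusted p = 0.00845). Ppib, the cyclophilin that turns prolines in collagen, was at 61.0, 48.5 and 75.2 FPKM in Control and 82.7, 72.8 and 86.3 in TGF-β1 libraries. TGF-β1 replicate 2 fell inside the Control range, and the change of Ppib was 0.40 with an interval of -0.0020 to 0.81 (adjusted p = 0.0918). Without Control replicate 3 it was 0.56 (adjusted p = 0.0234), without Control replicate 2 it was 0.24 (adjusted p = 0.202), and without TGF-β1 replicate 2 it was 0.47 (adjusted p = 0.101).

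The genes of ER-associated degradation changed least, with a summed level 1.32 times higher and 2 of 4 genes called. Edem1, a lectin that hands misfolded glycoproteins to disposal, rose from 5.23 ± 0.297 to 10.3 ± 0.389 FPKM (change 0.86, adjusted p = 3.86e-04). Herpud1, a scaffold of the degradation complex with the ERSE-II shown above, rose from 62.8 ± 4.04 to 89.1 ± 2.05 FPKM (change 0.50, adjusted p = 0.00280). The core of that complex is the ubiquitin ligase Syvn1 (HRD1) with its partner Sel1l, and neither was called. Sel1l was at 24.0, 25.9 and 21.0 FPKM in Control and 23.6, 26.2 and 22.1 in TGF-β1 libraries, so the groups covered the same range. Its change was 0.022, with an interval of -0.24 to 0.28 (adjusted p = 0.884), and its sign turned with the scaling or the libraries used, down to -0.13. Syvn1 was at 14.8, 13.7 and 19.6 FPKM in Control and 21.0, 13.0 and 23.3 in TGF-β1 libraries. TGF-β1 replicate 2 was the lowest of all 6 libraries, and the interval of the change, -0.36 to 0.79, was wide around a change of 0.21 (adjusted p = 0.489). Without TGF-β1 replicate 2 the change of Syvn1 was 0.46 (adjusted p = 0.0836), without TGF-β1 replicate 3 it was 0.059 (adjusted p = 0.869), and over all 6 libraries left out in turn it ran between these values. In none of the 17 alternatives was Sel1l or Syvn1 called. For Sel1l a change of over 0.28 lies outside the interval, whereas for Syvn1 a change as large as that of Herpud1 lies inside it.

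**Figure D3:**
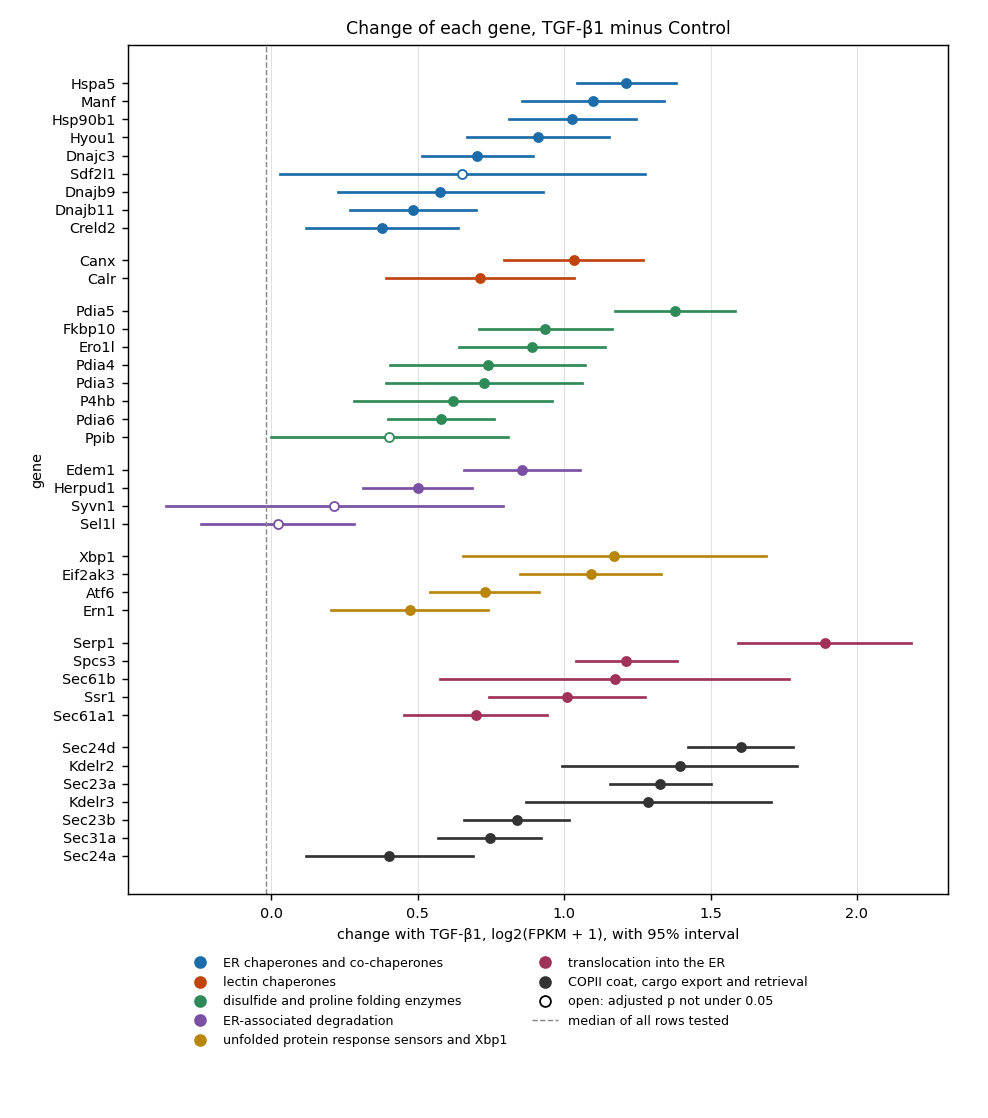
Change with TGF-β1 of each of the 39 genes on the log2(FPKM + 1) scale (x), with the 95% interval of the limma fit as a bar and genes grouped and coloured by role (y). Open circles are the 4 genes that were not called, and the dashed line is the median of all rows tested, -0.017.

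All 5 genes of translocation into the ER were upregulated, and their summed level was 2.25 times higher, of which Sec61b made up the largest share. Serp1, a small membrane protein that steadies new chains at the translocon under stress, changed most of all 39 genes. It was at 22.7, 16.9 and 20.6 FPKM in Control and 82.4, 71.7 and 75.9 in TGF-β1 libraries. The lowest treated library lay far above the highest control one, with a ratio of means of 3.82 and a change of 1.89 ± 0.12 (SE, adjusted p = 9.33e-05). Serp1, at chr3:58325891-58329795 on mm9, overlaps Eif2a on the opposite strand, and whether strand was used in counting is not stated. Spcs3, a subunit of the signal peptidase that trims new chains, went from 93.6 ± 3.85 to 218 ± 3.92 FPKM (change 1.21, adjusted p = 6.65e-05), in a row whose identifier is that of a non-coding transcript.

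The channel itself is formed by Sec61 proteins. Sec61b, its beta subunit, was at 193, 122 and 179 FPKM in Control and 409, 271 and 438 in TGF-β1 libraries. Replicate 2 was the lowest library in both groups, and yet the groups did not overlap and the change was 1.17 (adjusted p = 0.00917), or 1.39 without TGF-β1 replicate 2 (adjusted p = 0.00634). Sec61a1, the subunit that makes the pore, went from 55.4 ± 6.93 to 90.0 ± 1.04 FPKM, a change of 0.70 (adjusted p = 0.00216). Ssr1, a subunit of the translocon-associated protein complex, went from 34.5 ± 4.13 to 70.3 ± 4.50 FPKM, a change of 1.01 (adjusted p = 6.64e-04).

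All 7 genes of the COPII coat and of retrieval were upregulated, 4 of them by 1 or more on the log2 scale, with a median change of 1.29. The inner coat of a COPII vesicle is built from Sec23 and Sec24 proteins, of which the latter pick the cargo, and SEC23A and SEC24D are known for their part in collagen export. Sec24d, at chr3:122970414-123068553 on mm9 and with the UPRE shown above, was at 6.64, 7.06 and 7.36 FPKM in Control and 23.5, 23.8 and 22.8 in TGF-β1 libraries. Its replicates lay close together, and the change was 1.60 (adjusted p = 2.97e-05). Its paralog Sec24a was at 9.53, 7.75 and 8.83 FPKM in Control and 10.6, 13.4 and 11.5 in TGF-β1 libraries, so that its groups were only just apart. The change of Sec24a was 0.40 (adjusted p = 0.0311), and its call was among the least stable of the 39 genes, kept in 8 of 17 alternatives. It was lost without Control replicate 2 or 3 (adjusted p = 0.0934 and 0.0656) and without TGF-β1 replicate 2 or 3 (adjusted p = 0.0789 and 0.0734).

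Sec23a was at 20.7, 19.1 and 20.3 FPKM in Control and 51.1, 53.5 and 51.0 in TGF-β1 libraries, a change of 1.33 (adjusted p = 4.81e-05). Sec23b was at 19.8, 18.8 and 19.4 FPKM in Control and 35.1, 37.4 and 33.7 in TGF-β1 libraries, a change of 0.84 (adjusted p = 2.85e-04). Sec31a, the outer coat subunit, went from 107 ± 3.01 to 179.8 ± 7.84 FPKM (change 0.74, adjusted p = 4.28e-04). KDEL receptors catch ER residents that have escaped to the Golgi and send them back. Kdelr2 was at 95.2, 80.5 and 61.0 FPKM in Control and 199, 221 and 198 in TGF-β1 libraries, a change of 1.39 (adjusted p = 9.53e-04). Kdelr3 was at 78.0, 65.5 and 48.1 FPKM in Control and 152, 161 and 151 in TGF-β1 libraries, a change of 1.29 (adjusted p = 0.00158). Both receptors had their highest Control value in replicate 1 and their lowest in replicate 3, and in both the groups were far apart. Sec23a, Sec24d and Kdelr3 each overlap a gene on the opposite strand.

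Paralogs of the coat and of the receptors changed by unequal amounts, with the ratio of FPKM taken within each library. The size of a ratio depends on the transcript lengths behind the FPKM, which in the annotation are 4109 nt for the row of Sec23a and 944 nt for that of Sec23b. A length that is the same in all libraries cancels in the change of the FPKM ratio. The ratio of Sec24d to Sec24a was 0.697, 0.911 and 0.833 in Control and 2.21, 1.77 and 1.99 in TGF-β1 libraries, so that Sec24a was the higher of the pair in every Control library and Sec24d in every treated one. The ratio of Sec23a to Sec23b was 1.05, 1.02 and 1.05 in Control and 1.46, 1.43 and 1.51 in TGF-β1 libraries. The ratio of Kdelr3 to Kdelr2 moved little, from 0.819, 0.813 and 0.789 to 0.763, 0.727 and 0.762. On the log2(FPKM + 1) scale these ratios changed by 1.20, 0.49 and -0.11. In all 3 pairs compared the groups did not overlap, and the two-sided exact permutation p was 0.1 in each, also after adjustment over the 3 pairs. That is the smallest p that 3 against 3 libraries allow, so this test could not reach 0.05. Paralogs outside the list do not enter these ratios. The group mean of Sec24b was 39.3 FPKM in Control and 38.8 in TGF-β1 libraries, and that of Sec24c 22.8 and 25.1. Neither was called in limma. Kdelr1 went from 118 to 142 FPKM, a change of 0.27 (limma adjusted p = 0.0208).

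TGF-β1 replicate 2 deviated from the other treated libraries along GC content. Over 10847 rows with a known GC content, Spearman's rho between GC content and the deviation from the group mean was -0.390 in this library, 0.266 in TGF-β1 replicate 1 and 0.322 in replicate 3. Over the 38 genes of the list with a GC value it was -0.473, 0.306 and 0.509, where the 3 deviations sum to 0 within each gene. In Control replicate 2 it was 0.110 over the same genes. The level in TGF-β1 replicate 2 relative to the mean of replicates 1 and 3 was 0.587 in Syvn1 (57.3% GC), 0.592 in Sdf2l1 (56.7%) and 0.640 in Sec61b (57.4%). It was 0.970 in Fkbp10, which has the same GC content as Sec61b. The same ratio in Control replicate 2 was 0.792 in Syvn1, 0.732 in Sdf2l1, 0.655 in Sec61b, 0.712 in Ppib and 1.17 in Fkbp10. Of the 4 genes that were not called, Syvn1, Sdf2l1 and Ppib were lower in TGF-β1 replicate 2 than in the other treated libraries. They were also lower in Control replicate 2 than in the other Control libraries. The part of GC content in that was not tested. With replicate 2 as a batch term 37 of the 39 genes were called higher, Sdf2l1 and Ppib included. That term fits a shift common to Control and TGF-β1 replicate 2, so it does not model a GC trend in the treated library alone. With replicates 1 and 3 alone 30 were called higher. Of all 11898 rows tested, 2985 were called higher with the batch term and 2161 with replicates 1 and 3 alone, against 2911 in the main fit.

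**Figure D4:**
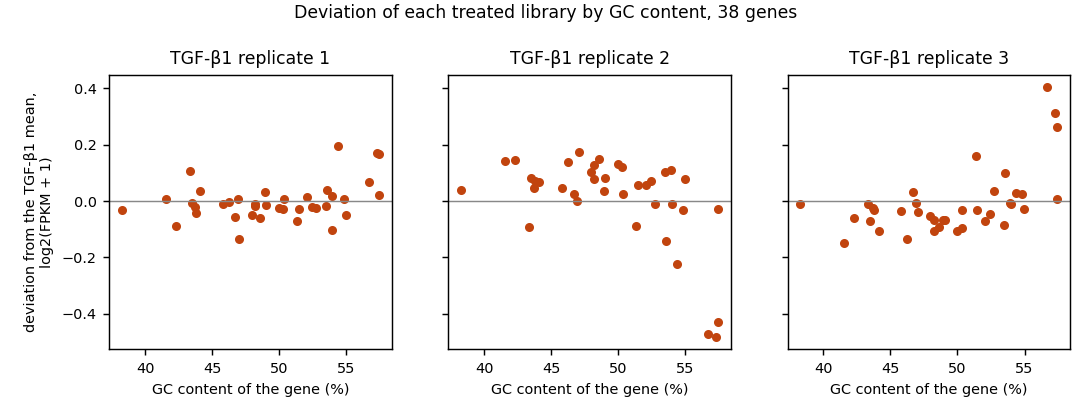
Deviation of each of 38 genes from the TGF-β1 group mean on the log2(FPKM + 1) scale (y) by GC content in percent (x), in 1 panel per TGF-β1 library. In replicate 2 the 3 genes with the largest negative deviations, Syvn1, Sdf2l1 and Sec61b, have a GC content of 56.7% to 57.4%, and in replicate 3 the same genes are the highest.

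Genes of the same pathways outside the list were described by the same fit. Of 145 related genes, 136 had a row and 134 passed the filter on level, and 83 (61.9%) were called higher and 8 (5.97%) lower, with a median change of 0.48 on the log2 scale. The shares over all rows tested were 24.5% and 23.6%. In the PERK arm of the unfolded protein response, translation of the transcription factor ATF4 is raised. Whether PERK had a part in the levels of the ATF4 branch was not tested. All 12 genes listed here as the ATF4 branch were upregulated, by a median of 1.63, the largest of the 7 related groups. Stc2, a gene induced by ER stress that was listed with other regulators, was called lower. Trib3, a pseudokinase induced through ATF4, went from 0.830 ± 0.0711 to 25.2 ± 4.38 FPKM (change 3.83, adjusted p = 1.25e-05). The smallest changes of the branch were those of Sesn2 and of Ddit3, which encodes the factor CHOP, at 0.47 and 0.57.

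The remaining related groups were mixed. Among other regulators of the unfolded protein response, 6 of 10 were called higher and Stc2 lower. Atf6b, the paralog of Atf6, was at 23.3 ± 2.92 FPKM in Control and 15.5 ± 4.32 in TGF-β1 libraries. Each treated library lay below all Control libraries, and the gene was not called (change -0.59, adjusted p = 0.0644). Creb3l1, a membrane-bound transcription factor related to ATF6 and known for collagen expression, rose from 13.3 ± 1.07 to 59.5 ± 6.51 FPKM (change 2.08, adjusted p = 4.58e-05). Stc2, a secreted glycoprotein known to be induced by ER stress, fell from 4.63 ± 0.138 to 1.45 ± 0.162 FPKM (change -1.21, adjusted p = 2.37e-04). Of 31 other ER folding genes 16 were called higher and 3, Fkbp2, Cnpy2 and Cnpy3, lower. Fkbp14, a collagen prolyl isomerase, rose by 1.49, and Cnpy2 fell by 0.66. Of 18 other degradation genes 9 were called higher, with Derl1, a channel component, at 0.81, and Os9, a lectin that delivers substrates to the SEL1L and HRD1 ligase, fell by 0.66.

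Among genes of signal recognition, translocon and signal peptidase, 12 of 19 were called higher and 1 lower. Sec11c, a catalytic subunit of the signal peptidase, rose by 1.27. Sec62, which serves translocation after translation and has a role in recovery from ER stress, fell from 156 ± 9.95 to 83.4 ± 4.13 FPKM (change -0.89, adjusted p = 3.46e-04). Of 9 subunits of the oligosaccharyltransferase, which attaches sugars to new chains, 6 were called higher. Krtcap2, a further subunit, rose by 0.76 (adjusted p = 0.00300). The enzyme exists in 2 forms, each with its own catalytic subunit. Of the form at the translocon, Ostc rose by 1.21. The catalytic subunit Stt3a, at 0.92, was not called (adjusted p = 0.111), though each treated library lay above all Control libraries. Stt3a was at 39.9 FPKM in Control replicate 3, against 122 and 109 in Control replicates 1 and 2. Of the other form, the catalytic subunit Stt3b fell by 0.43 and Tusc3 rose by 0.52 (adjusted p = 0.0142). Of 35 further genes of COPII, cargo receptors and the retrograde COPI coat, 22 were called higher and 1 lower. Lman1, a cargo receptor for glycoproteins, rose from 27.8 ± 0.787 to 73.4 ± 6.36 FPKM (change 1.37, adjusted p = 8.68e-05), and Ergic3, a protein of the compartment between ER and Golgi, fell by 0.67.

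**Figure D5:**
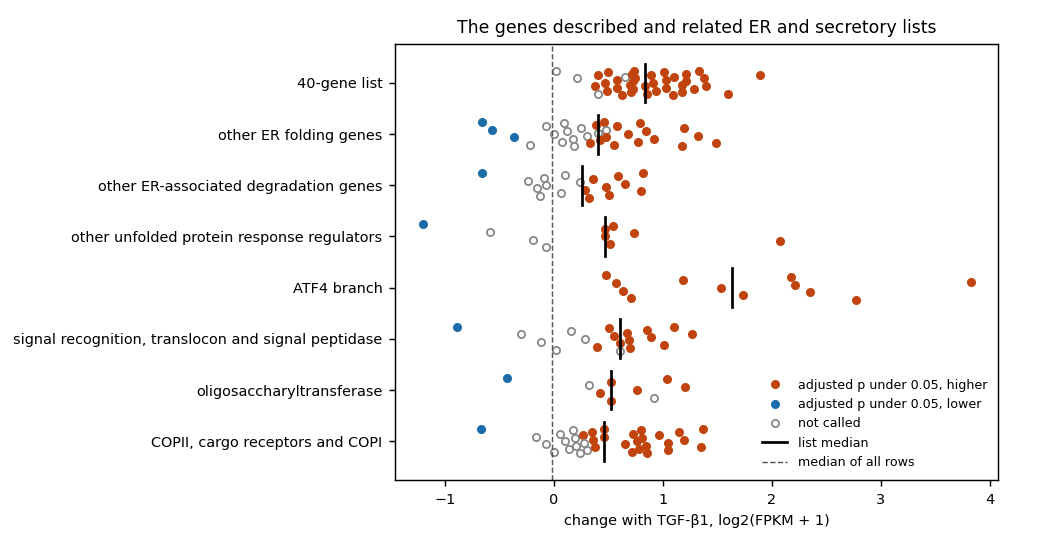
Change with TGF-β1 on the log2(FPKM + 1) scale (x) of the 39 genes of the 40-gene list and of 134 related genes in 7 groups (y), with 1 circle per gene, filled in red where called higher, filled in blue where called lower and open where not called. Black bars mark group medians, 0.84 in the 40-gene list and 1.63 in the ATF4 branch, and the dashed line is the median of all rows, -0.017.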

How the data were processed

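The authors aligned quality-filtered reads to mm9 with TopHat (TopHat2 2.0.11 in the submitters' processing notes) and obtained FPKM from Cufflinks. The deposited values are FPKM, 1 column per library, and no scaling between libraries is stated. All columns matched a sample by name. Of 19730 rows, 19699 were matched to GENCODE M1 by transcript. Of the 39 genes, 26 have more than 1 transcript and 17 overlap another gene.

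In R 4.3.3, limma 3.58.1 (lmFit, then eBayes using the trend of variance on mean) gave two-sided tests of log2(FPKM + 1). The p-values were adjusted by Benjamini-Hochberg over the 11898 rows whose mean was 1 FPKM or more. This scale understates changes of low genes. No count model was run: the low values were whole fragments in 99.4% to 99.9% of cases (within 0.1), but only under an assumed fragment length. The script was tested on simulated data, where false calls ran somewhat above the share that the threshold implies. Paralog ratios were compared by exact permutation.

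Genes given in every library are Hspa5, Hsp90b1, Calr, Canx, the sensors, Xbp1, the paralogs and the 5 largest changes in each direction (no gene was called lower). Sdf2l1, Ppib, Syvn1, Sel1l and Sec61b were added after their values were seen. From each related list, the largest called change in each direction was named. For the ATF4 branch 2 smallest changes were added after their values were seen. So were Stt3a, Tusc3 and Krtcap2 of the oligosaccharyltransferase, and Sec24b, Sec24c, Kdelr1 and Atf6b. Members and lists were chosen with earlier results of these data known. Tables and plots were made in Python 3.11.15 (matplotlib 3.10.9, pandas 2.3.3, numpy 2.4.6), and permutation tests with scipy 1.17.1. Alternatives were the pseudocount, the filter, the trend, 3 scalings, blocks and libraries left out.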

Additional observations from a re-analysis of the deposited data

How the results depend on the processing

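Of the 35 genes called higher, 27 were called in each of 17 alternatives, and Creld2, Sec24a, Dnajb9, Pdia3, Pdia4, Xbp1, Ern1 and P4hb were lost in at least 1. The count called higher was 32 to 34 with 1 library left out and 30 at an adjusted p under 0.01. Of all 11898 rows tested, 2273 to 2804 and 1945 were called higher in these settings, against 2911 in the main fit. Replicate numbers were not treated as pairs: the deviations of same-numbered libraries had correlations of 0.0921, 0.232 and 0.0853, not all above 0.1. Control and TGF-β1 libraries of unlike number had -0.0673, -0.0160, -0.183, -0.0635, 0.117 and -0.194, mostly below 0. The deviations sum to 0 within each group, so the values for like and unlike numbers are tied to each other. Whether the libraries were paired was not tested. With a replicate block 35 were called, Creld2 and Sec24a lost and Sdf2l1 and Ppib gained. With a common sum of FPKM without the top 1% of rows the median of the genes was 0.69, which lies over the -0.15 of all rows. Sel1l, at 0.022, was -0.13 under that scaling (adjusted p = 0.397), -0.025 with quantile normalization (adjusted p = 0.875) and -0.058 to 0.088 with 1 library left out, below 0 without Control replicate 3 (adjusted p = 0.665) and at -0.041 without TGF-β1 replicate 2 (adjusted p = 0.791). Of the related lists, other degradation genes had 9 higher and 1 lower, against 5 and 2 with the common sum, 2 lower with quantile normalization, 4 higher with replicates 1 and 3 alone and 4 higher at an adjusted p under 0.01. Other regulators had 6 higher and 1 lower, against 3 lower with the common sum, 4 with quantile normalization, 2 with the replicate block, 2 with replicate 2 as a batch term and 3 higher at an adjusted p under 0.01. Genes of signal recognition and translocon had 1 lower, against 2 with the common sum, 2 with quantile normalization and 1 to 2 with 1 library left out, 2 without TGF-β1 replicate 2. Why these values moved was not tested, beyond the fewer libraries or stricter threshold that some settings use.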
